A study of Mus musculus with 8 samples.

Results

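The genes of respiratory complexes II to V were followed in ribosome-associated RNA of mouse midbrain dopaminergic neurons. Genes were taken by name: symbols that begin with Sdha, Sdhb, Sdhc, Sdhd, Uqcr, Cox4 to Cox8 or Atp5, and the cytochromes Cyc1 and Cycs. The rule found 51 of the 21761 genes in the deposited table. They comprise 4 subunits of complex II, 9 of complex III, 18 of complex IV, 15 of complex V, the electron carrier cytochrome c, and 4 genes that are not subunits. Those 4 are Sdhaf1 and Sdhaf2, assembly factors of complex II, and Atp5s and Atp5sl. Genes encoded by the mitochondrial genome were not analysed here.

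The RNA came from translating ribosome affinity purification (TRAP), which pulls tagged ribosomes out of 1 cell type together with the messages they carry. The strain was C57BL/6 for all animals. In 1 group MPTP-HCl was injected into the abdomen once a day for 5 days at 30 mg/kg, counted as free base, and in the other saline was injected on the same schedule. Tissue was taken 4 days after the last dose, and each group has 4 libraries, called MPTP 1 to 4 and saline 1 to 4. The deposited counts carry SN, for substantia nigra, in their name, and the sample labels do not say whether ventral tegmental neurons were included. The labels used here also give neither the age nor the number of animals behind a library, nor the driver of the ribosome tag. The p-values therefore measure the spread between libraries, which may be technical.

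The respiratory chain passes electrons from metabolites to oxygen across the inner mitochondrial membrane. Complex II oxidises succinate and feeds ubiquinone, complex III passes electrons from ubiquinol to cytochrome c, and complex IV, cytochrome c oxidase, reduces oxygen. Complexes III and IV pump protons, and complex V, the ATP synthase, makes ATP as the protons return. Brain enzymes turn MPTP into a toxin that enters dopaminergic neurons and blocks complex I.

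Library totals ranged from 54192354 to 78892061 counts, of which the 51 genes held between 1.06% and 1.17%. The library saline 3 stood apart from the other saline libraries. On the first principal component of log2 CPM (counts scaled to a common library size; 20.5% of the variation) it lay with the MPTP libraries. The summed level of 18 dopaminergic neuron markers was 9867 to 11702 CPM in MPTP, 13609 to 14632 in saline 1, 2 and 4, and 8815 in saline 3. The 15 oligodendrocyte markers summed to 1175 to 1348 CPM in MPTP, 805 to 982 in the same 3 saline libraries and 1722 in saline 3. The 15 astrocyte markers summed to 936 to 1075, 838 to 912 and 1144 CPM in that order, and the 15 microglia markers to 64.5 to 76.5, 55.8 to 70.1 and 70.2 CPM. The 15 endothelial and mural markers summed to 20.0 to 33.4, 18.0 to 30.1 and 38.4 CPM. With all libraries, 14 of 15 astrocyte and 14 of 15 oligodendrocyte markers had a log2 fold change above 0 after MPTP, and 15 of 18 dopaminergic markers were below 0. Microglia markers had 10 of 15 above 0, and endothelial and mural markers 7 above and 8 below. None of these markers was at 0 in any library, and the part of other cell types in the results below was not tested. In such bulk samples fewer cells of a type and less RNA per cell cannot be told apart. Because of saline 3, results are given with and without it.

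The levels of the subunits were compared per length, as CPM per kilobase of exon averaged over the 8 libraries. Complex II held no subunit of very high level, with Sdhd at 132, Sdha at 122, Sdhb at 116 and Sdhc at 47.9 CPM per kilobase. Sdha and Sdhb form the catalytic head that oxidises succinate, and Sdhc and Sdhd anchor it in the membrane. In complex III the small subunit Uqcr10 reached 896 CPM per kilobase and Uqcrb was the lowest at 54.5. The catalytic subunits Cyc1 (118) and Uqcrfs1 (87.1), which carry the heme and the iron-sulfur cluster that electrons pass through, were in between. In complex IV the isoforms Cox4i1 (935) and Cox6a1 (872) were the highest. In complex V the catalytic beta subunit Atp5b stood at 828 CPM per kilobase, Atp5g3 of the membrane c ring at 710 and Atp5k at 54.6. The level of Atp5g1 (63.9) rests on a long annotated transcript and is uncertain.

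Complex IV was the complex with tissue-restricted isoforms, and 7 of them were below 15 CPM on average. Cox7a1, the heart and muscle partner of Cox7a2, was the highest of these at 10.6 CPM per kilobase, against 449 for Cox7a2. Cox6b2, Cox4i2, Cox6a2, Cox7b2 and Cox8b ranged from 3.17 down to 0.592 CPM per kilobase. Cox8c, known from testis, had at most 8 counts in a library and was not tested.

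**Figure D1:**
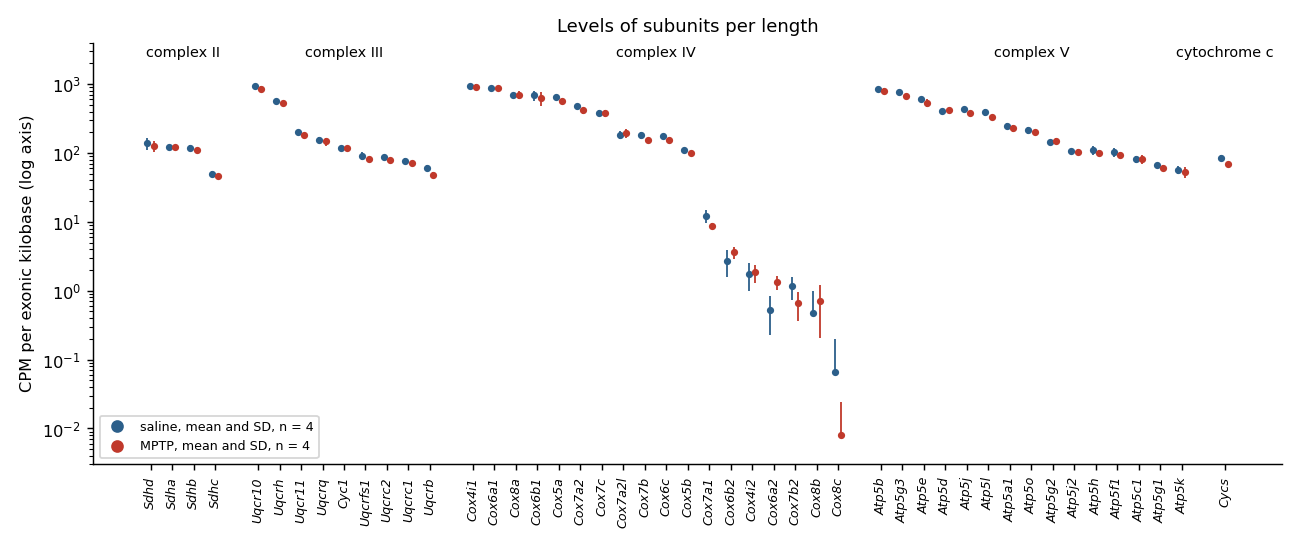
CPM per exonic kilobase of each subunit on a log axis, grouped by complex, with the mean of the 4 saline libraries in blue and of the 4 MPTP libraries in red; bars are the SD and are drawn upward only where the SD exceeds the mean. The means of the 2 groups lie close together for nearly every abundant subunit, and 7 isoforms of complex IV form a separate low range that ends with Cox8c.

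After MPTP, most subunits sat slightly below their saline level, and none passed the test. Of the 50 genes tested, 41 had a log2 fold change (MPTP minus saline) below 0, against 49.9% of the 15999 genes tested in all, whose median was 0.00. With edgeR's quasi-likelihood test and Benjamini-Hochberg adjustment over all genes, 0 of the 50 were called lower and 0 higher at an adjusted p of 0.05. Of all genes, 0.0313% were called lower and 0.075% higher. The smallest adjusted p among the 50 was 0.415, shared by Uqcrb and Cycs. DESeq2 and limma voom also called 0 of them. At an unadjusted p of 0.05, 9 of the 50 (18%) were lower, where 4.5% of all genes were, and 1 (2%) was higher, where 4.28% were. Those 9 are Uqcrb, Cycs, Atp5l, Atp5g3, Cox6c, Cox7a2, Cox7b, Cox5a and Cox7a1, and the 1 is Cox6a2.

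All 4 complexes had nearly the same median among subunits of at least 15 CPM, a limit set after the values were seen. The median log2 fold change was -0.10 for complex II (4 of 4 subunits below 0), -0.12 for complex III (9 of 9), -0.12 for complex IV (9 of 11) and -0.12 for complex V (13 of 15). Over the 39 abundant subunits it was -0.12, a change of -7.78%, and 35 lay below 0. Their values ran from -0.35 (Uqcrb) to 0.07 (Cox7a2l). The lowest limit of their 95% confidence intervals was -0.59 and the highest 0.31, so a halving or doubling lies outside each of these intervals. With all subunits of complex IV its median was -0.05, with 11 of 17 below 0, since 4 of the 6 tested rare isoforms lay above 0. Abundant genes in general also leaned below 0: the median of all genes was -0.02 at 15 CPM or more, -0.05 at 100 CPM or more and -0.07 at 300 CPM or more. The subunits in the same ranges had medians of -0.12 (39 subunits), -0.11 (33) and -0.12 (13). Of all genes in these ranges, 54.7%, 64.5% and 69.0% lay below 0, and of the subunits 35 of 39, 29 of 33 and 11 of 13. Most subunits are short, with 41 of 45 in the shortest of 4 equal groups of all genes by exonic length, where the median of all genes was 0.00.

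**Figure D2:**
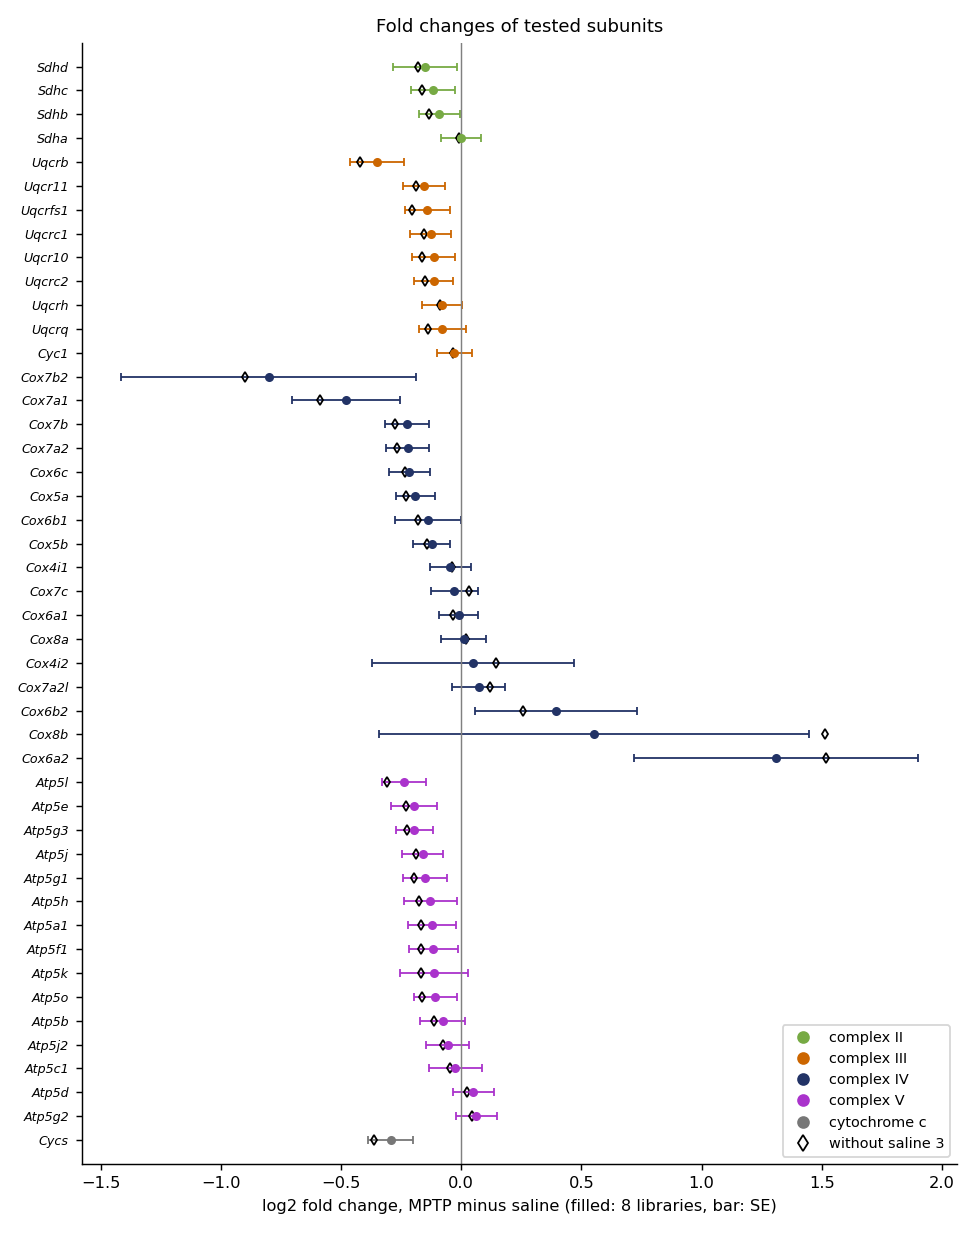
Log2 fold change, MPTP minus saline, of each tested subunit and of Cycs, ordered within its complex; filled points with SE bars use all 8 libraries and open diamonds leave out saline 3. Most points sit between -0.35 and 0, and the wide bars belong to the rare isoforms of complex IV, among which Cox6a2 is highest at 1.31.

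Without saline 3, the medians over all tested subunits became -0.15 for complex II, -0.15 for III and -0.17 for V, farther from 0 than with all libraries. That of IV, which includes the rare isoforms, was -0.04, slightly nearer to 0. For the 11 abundant subunits of complex IV the median moved from -0.12 to -0.14 when saline 3 was left out, with 8 below 0. Cycs was then called lower (log2 fold change -0.36, edgeR adjusted p = 0.0391), which is 1 of 50 genes (2%), where 0.983% of all genes were called lower. Saline 3 is the saline library that lay with the MPTP libraries on the first principal component, so leaving it out favours larger differences. Calls over all genes, in both directions, went from 17 to 297. Uqcrb (-0.42, edgeR adjusted p = 0.0593) and Atp5l (-0.31, edgeR adjusted p = 0.0618) did not pass the threshold. Leaving out saline 2 in its place brought the median of complex II from -0.10 to -0.02 and that of complex V from -0.12 to -0.03. The median of complex IV moved from -0.05 to -0.0071 without MPTP 3 and to -0.13 without MPTP 4. The size of these medians thus depended on single libraries of either group. With a non-neuronal marker score as covariate and all 8 libraries, the medians were -0.051 for complex II, -0.076 for III, -0.10 for IV and -0.042 for V. With that covariate and without saline 3, a setting added after the values were seen, the median of complex II was 0.0436 and those of complexes III and IV were -0.26 and -0.27. In that setting the score separates the groups, so score and treatment cannot be told apart.

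Groups that did not overlap were few with all libraries. They were Cox5b and Atp5g3 on the lower side (4% of 50, against 2.14% of all genes) and Cox6a2 on the higher side (2%, against 2.04%). Without saline 3 there were 10 on the lower side (20%, against 7.52%) and 1 on the higher side (2%, against 7.22%). Without MPTP 2 there were 13 lower (26%, against 3.43%) and 1 higher (2%, against 3.52%). Without saline 1 there were 4 lower (8%, against 2.95%) and 2 higher (4%, against 3.13%).

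The mean log2 CPM of a complex's tested subunits showed the same spread by library. For complex III it was 7.05, 7.21, 7.06 and 7.09 in MPTP 1 to 4 and 7.27, 7.28, 7.11 and 7.28 in saline 1 to 4. Saline 1, 2 and 4 lay above all 4 MPTP libraries, and saline 3 lay among them. For complex II it was 7.49, 7.42, 7.52 and 7.46 in MPTP and 7.56, 7.70, 7.47 and 7.53 in saline. For complex V it was 7.63, 7.69, 7.64 and 7.58 in MPTP and 7.73, 7.87, 7.62 and 7.74 in saline. In both, saline 3 again lay within the MPTP range and the other saline libraries above it. Complex IV overlapped throughout, with 5.14 ± 0.0873 (SD, n = 4) in MPTP and 5.12 ± 0.113 (SD, n = 4) in saline. This mean gives its 6 tested rare isoforms the same weight as its 11 abundant subunits. Those abundant subunits had a median log2 fold change of -0.12, with 9 below 0.

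**Figure D3:**
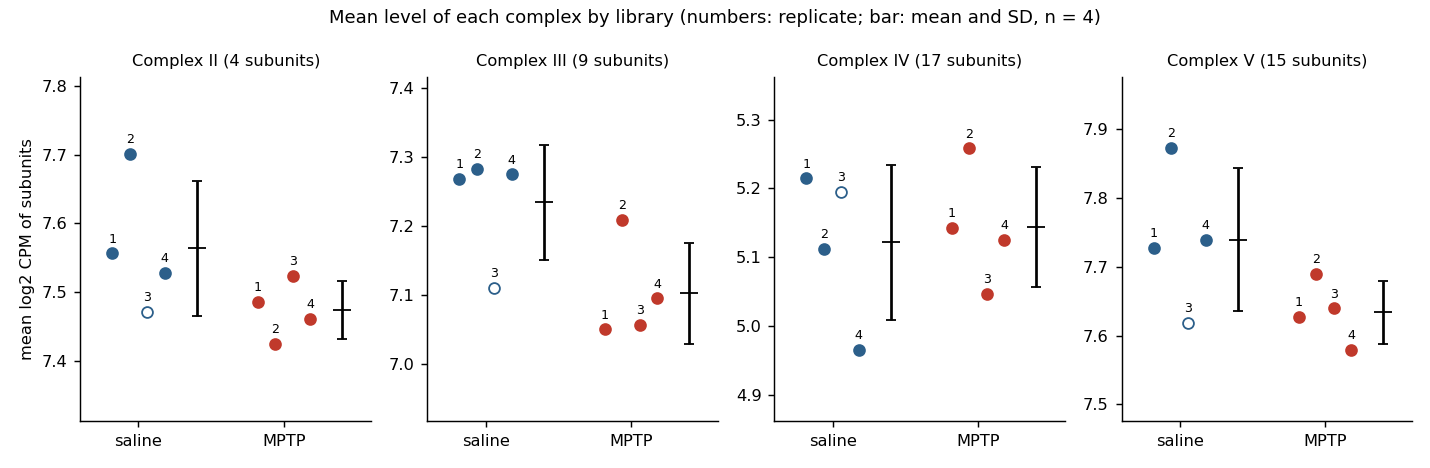
Mean log2 CPM of the tested subunits of each complex in each library, with the replicate number beside each point and the mean and SD of 4 libraries at the side; saline 3 is the open circle. In complexes II, III and V the other 3 saline libraries lie above all MPTP libraries and saline 3 does not. Complex IV overlaps, and its mean includes 6 rare isoforms.

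Complex II as a set held the subunit with the least difference. Sdha, the flavoprotein, had 365, 316, 375 and 353 CPM in MPTP 1 to 4 and 345, 377, 347 and 342 CPM in saline 1 to 4. The groups overlapped fully and the log2 fold change was 0.00 ± 0.0822 (SE). The other subunits were at -0.09 (Sdhb, the iron-sulfur subunit), -0.12 (Sdhc) and -0.15 (Sdhd). Sdhd was the most variable of the 4, with 128 to 187 CPM in MPTP and 150 to 222 CPM in saline. Among the assembly factors, Sdhaf2, which attaches the flavin to Sdha, was at -0.19 ± 0.103 (SE) and Sdhaf1 at 0.10 ± 0.143 (SE).

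In complex III, Uqcrb had the largest difference. This small subunit near the quinone site had 23.3, 28.9, 25.5 and 24.8 CPM in MPTP 1 to 4 and 36.9, 32.8, 27.9 and 33.2 CPM in saline 1 to 4. Only saline 3 was within the MPTP range, just below MPTP 2. The means were 25.6 ± 2.36 (SD, n = 4) and 32.7 ± 3.71 CPM (SD, n = 4), a log2 fold change of -0.35 ± 0.111 (SE). The other small subunits, Uqcr10, Uqcr11, Uqcrh and Uqcrq, ranged from -0.15 (Uqcr11) to -0.08. The core proteins Uqcrc1 and Uqcrc2 were at -0.13 and -0.11. The electron-carrying subunits Uqcrfs1, the Rieske iron-sulfur protein, and Cyc1 were at -0.14 and -0.03, and Cyc1 was the steadiest, with 173 to 188 CPM in MPTP and 178 to 186 CPM in saline.

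Cytochrome c (Cycs), the soluble carrier between complexes III and IV that also triggers caspases when released, had 192, 233, 229 and 209 CPM in MPTP 1 to 4 and 293, 278, 226 and 261 CPM in saline 1 to 4. Saline 3 was again the only saline library within the MPTP range. The log2 fold change was -0.29 ± 0.0950 (SE), from 264 ± 28.8 (SD, n = 4) to 216 ± 18.9 CPM (SD, n = 4).

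In complex IV the abundant subunits ran from -0.23 to 0.07 without a clear break. At the lower end, Cox7b, Cox7a2, Cox6c and Cox5a were at -0.23, -0.22, -0.22 and -0.19, each with an edgeR adjusted p of 0.492 or more. Cox7a2 had 261, 310, 248 and 274 CPM in MPTP 1 to 4 and 333, 324, 287 and 330 CPM in saline 1 to 4. MPTP 2 and saline 3 were the libraries that overlapped. Cox5b, a zinc-binding subunit, had 89.2, 89.3, 84.1 and 88.7 CPM in MPTP and 96.5, 101, 91.5 and 94.1 CPM in saline. The Cox5b groups did not overlap, with saline 3 the lowest of the saline libraries, and the log2 fold change was -0.12 ± 0.0767 (SE).

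Near 0 were Cox4i1 (-0.05), which with Cox5a is an early-assembling subunit, Cox7c (-0.03), Cox6a1 (-0.01) and Cox8a (0.01). Cox7a2l, known for a role in joining complexes III and IV into supercomplexes, was at 0.07 ± 0.111 (SE). Whether it has that role in this strain was not examined. Cox6b1 was the most variable abundant subunit of this complex, with 306 to 486 CPM in MPTP and 358 to 510 CPM in saline, and was at -0.14 ± 0.138 (SE).

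Of the rare isoforms, Cox6a2, the form known from heart and skeletal muscle, had higher counts after MPTP but was not called. Groups apart on the higher side were found for 2.04% of all genes. It had 68, 82, 45 and 72 counts in MPTP 1 to 4 and 37, 13, 32 and 9 counts in saline 1 to 4. All 4 MPTP libraries were above all 4 saline libraries, saline 3 included, and saline 1 and 3 were closest to MPTP 3. In CPM the means were 0.896 ± 0.198 (SD, n = 4) and 0.360 ± 0.206 (SD, n = 4). The log2 fold change was 1.31 ± 0.591 (SE) with an edgeR adjusted p of 0.542. Cox7a1 was at -0.48 ± 0.225 (SE), with 3.72, 3.83, 3.30 and 3.01 CPM in MPTP and 6.27, 4.80, 3.70 and 4.57 CPM in saline, where saline 3 overlapped. Cox6b2 was at 0.39, Cox8b at 0.55, Cox4i2 at 0.05 and Cox7b2 at -0.80, and each confidence interval included 0.

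In complex V, Atp5l, Atp5e and Atp5g3 had the lowest fold changes. Atp5g3 had 470, 501, 488 and 458 CPM in MPTP 1 to 4 and 555, 574, 515 and 552 CPM in saline 1 to 4. The groups did not overlap and the log2 fold change was -0.20 ± 0.0784 (SE). Atp5l, a membrane subunit where ATP synthase dimerises, had 171, 200, 173 and 174 CPM in MPTP and 221, 233, 180 and 213 CPM in saline, a log2 fold change of -0.24 ± 0.0925 (SE). MPTP 2 was high within its group and saline 3 low within its own, and these overlapped. Atp5e, the smallest subunit of the central stalk, was at -0.20 ± 0.0953 (SE) and Atp5j of the stator at -0.16 ± 0.0848 (SE).

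The catalytic head showed smaller values: Atp5a1 (alpha) was at -0.12 and Atp5b (beta) at -0.08, and of the central stalk Atp5c1 (gamma) was at -0.02 and Atp5d (delta) at 0.05. Atp5b had the most counts of all subunits, with 1420 to 1704 CPM in MPTP and 1497 to 1799 CPM in saline. The stator subunits Atp5o, Atp5f1 and Atp5h were at -0.11, -0.12 and -0.13. Atp5g2 lay at 0.06 ± 0.0851 (SE). Of the genes that are not subunits, Atp5s was at -0.20 ± 0.115 (SE) and Atp5sl at -0.04 ± 0.101 (SE).

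**Figure D4:**
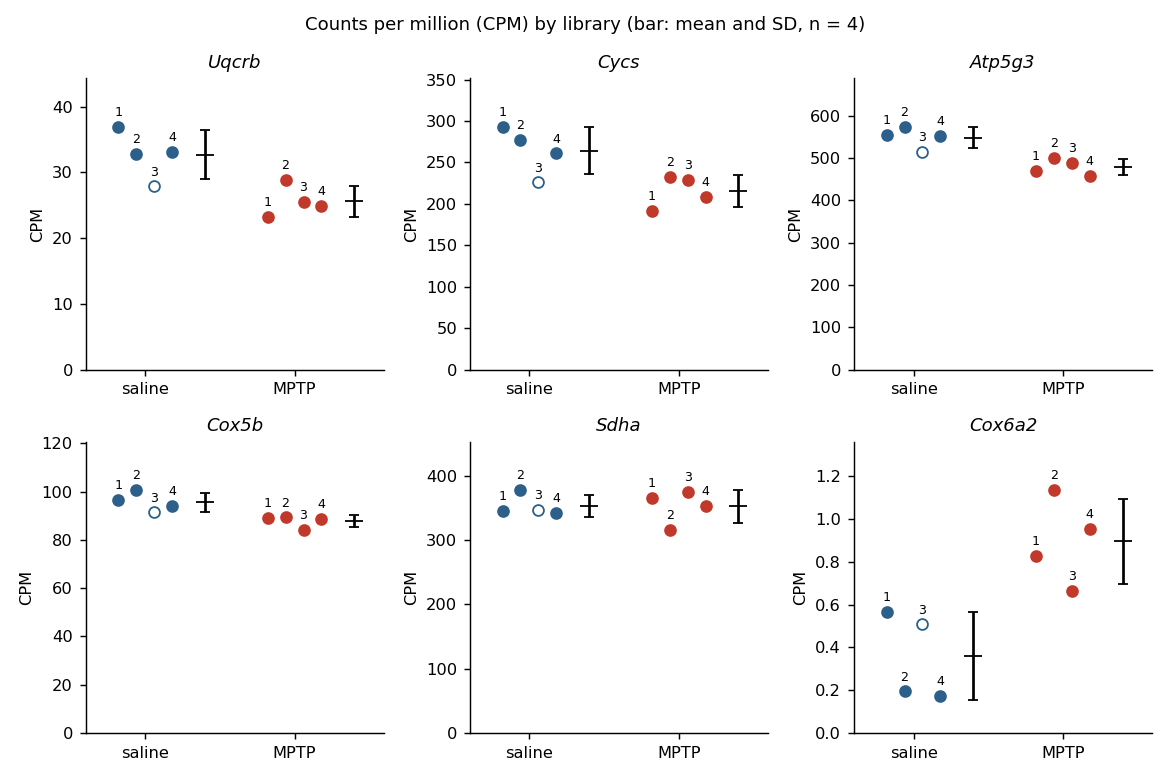
CPM of 6 genes in each library, with the replicate number beside each point, saline 3 as an open circle, and the mean and SD of 4 libraries at the side. In Uqcrb and Cycs only saline 3 reaches the MPTP range, in Atp5g3, Cox5b and Cox6a2 the groups are apart, and in Sdha they overlap.

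Isoforms that replace each other in the same complex were compared as shares within a library, which do not depend on library scaling. Each of the 5 shares was tested by an exact permutation test, two-sided, over all 70 assignments of the group labels, which cannot give a p below 0.0286, and p-values were adjusted over the 5. Atp5g1, Atp5g2 and Atp5g3 encode the same mature c subunit of the ATP synthase ring. Per exonic kilobase, Atp5g3 made up 76.3%, 74.5%, 77.8% and 74.97% of c subunit RNA in MPTP 1 to 4 and 77.5%, 79.4%, 78.1% and 77.9% in saline 1 to 4. Only MPTP 3 was within the saline range, and the means were 75.9% ± 1.48 (SD, n = 4) and 78.2% ± 0.840 (SD, n = 4) with an exact permutation p of 0.0571 and an adjusted p of 0.143. With plain counts, which do not rest on the length of Atp5g1, the Atp5g3 shares were 54.6% and 56.3% and the exact permutation p was 0.257. On either scale the shares also rest on how reads shared with copies of Atp5g1 and Atp5g2 were assigned, which is unknown.

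The Cox6a2 share of Cox6a RNA was 0.147%, 0.175%, 0.121% and 0.158% in MPTP 1 to 4 and 0.0918%, 0.0323%, 0.0901% and 0.0285% in saline 1 to 4. The groups did not overlap. The exact permutation p was 0.0286, the smallest these libraries can give, and the adjusted p was 0.143. Groups that do not overlap always give this smallest p. With Cox6a1 at -0.01, the share follows the Cox6a2 counts given above and is not a second line of evidence. The shares of Cox7a1 in Cox7a RNA (2.09% in MPTP and 2.47% in saline), of Cox4i2 in Cox4 RNA (0.199% and 0.184%) and of Atp5g1 in c subunit RNA (6.94% and 6.94%) had adjusted permutation p-values of 0.238, 0.893 and 1. No share passed the threshold after adjustment.

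Fold changes of the subunits moved with the GC content of their transcripts, a relation looked at after the values were seen. All genes of at least 15 CPM were divided into 4 equal bins of GC content. The 4 genes in the lowest bin, Uqcrb, Uqcrc2, Cox7b and Cycs, had a median log2 fold change of -0.26, where all genes of that bin had -0.08. The 11 in the next bin, among them Cox5a, Cox6c and Atp5l, had -0.14, where all genes had -0.04. The 13 in the bin above had -0.11 against 0.00, and the 12 in the highest bin, among them Cox8a, Atp5d and Cyc1, had -0.07 against 0.05. Across the 40 abundant genes Pearson's r between fold change and GC content was 0.54 and Spearman's rho 0.41, and across 8317 genes of that abundance r was 0.34. These points share their libraries and genes are not independent replicates, so no p is given. Per 10 points of GC content, log2 CPM of all genes sloped by 0.04, 0.08, -0.02 and 0.07 relative to the mean library in MPTP 1 to 4 and by -0.06, -0.11, -0.02 and 0.02 in saline 1 to 4.

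With a GC offset fitted in each library, added after the values were seen, the medians over all tested subunits moved lower. They were -0.14 for complex II, -0.14 for III, -0.13 for IV and -0.14 for V, against -0.10, -0.12, -0.05 and -0.12 without it. The complex IV median moved most, and that of its abundant subunits was already -0.12 without the offset. With the offset, 0 genes of the 50 were called. The AT-rich Uqcrb moved from -0.35 to -0.30 and Cycs from -0.29 to -0.23, nearer to 0. Others moved lower, among them Uqcr11 from -0.15 to -0.25, Cox7a1 from -0.48 to -0.55, Cox4i1 from -0.05 to -0.14, Cox8a from 0.01 to -0.09 and Atp5g2 from 0.06 to -0.02. Without saline 3 and with the GC offset, the medians were -0.19, -0.21, -0.15 and -0.20, and Cycs was no longer called (-0.30, edgeR adjusted p = 0.0654).

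**Figure D5:**
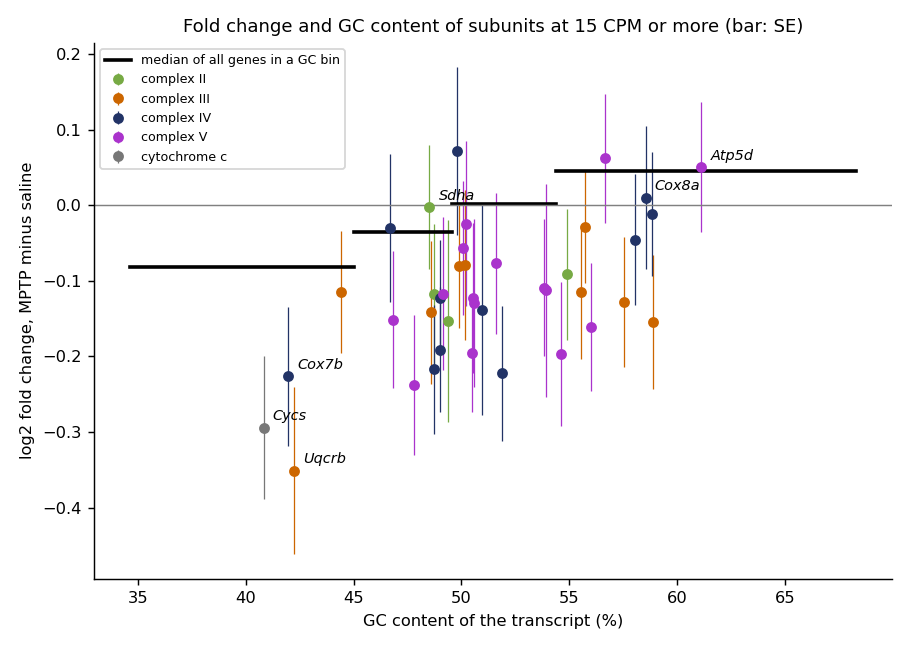
Log2 fold change of each abundant subunit and of Cycs, with SE, against the GC content of its transcript in percent; thick black lines are the median of all genes of at least 15 CPM in each of 4 bins of GC content. The subunits lie mostly below the black lines, which climb from -0.08 to 0.05, and the AT-rich Uqcrb, Cycs and Cox7b are among the lowest.

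Within the groups, the abundant subunits and Cycs did not vary as 1 block. A first component held 52.3% of the variation of 40 genes around their group means. It set Cox6b1, Cox8a, Uqcrq and Sdhc at one end against Sdhd, Atp5c1, Cox7a2l and Atp5h at the other, so subunits of the same complex lay at opposite ends. MPTP 2 and saline 1 lay toward the Cox6b1 end, and MPTP 3 and saline 2 toward the Sdhd end. Sdhd had 128 CPM in MPTP 2 and 187 CPM in MPTP 3, while Cox6b1 had 486 and 306 CPM. These differences within MPTP were larger than those between the group means of either gene.

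Reads of 11 of the 51 genes can also match processed pseudogenes, copies that are nearly identical over stretches as long as a read. Of the genes with the largest differences, Atp5l has 4 such copies, Uqcrb 3 and Cycs 2, with at least 97% identity over 100 bases or more among GENCODE transcripts. Cycs also matches Gm10053 at 99.89% over 946 bases, and Cox5b matches Gm11273 at 99.23% over 390 bases. Of the c subunit genes, Atp5g2 matches Gm10175 at 100% over 645 bases and Atp5g1 matches Gm10039 at 99.76% over 411 bases. For Atp5g3 no such copy was found, so the c subunit shares are uncertain too. None of these copies has a row in the count table, so how their reads were assigned is unknown and the counts of these genes are uncertain to that extent. Cox4i1 overlaps Emc8 and Atp5j overlaps Gabpa, and with unknown strand use their shared reads cannot be told apart.

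Nuclear respiratory genes are known targets of NRF1, which binds a palindrome-like site, and of the ETS factor GABP. RefSeq promoters of GRCm38.p6, from 250 bases before to 50 after the start site, were matched for 36 of the subunits and Cycs. The letters GCGCATGCG of the NRF1 site were found on either strand in 7 (19.4%), against 2.55% of 16524 promoters. The letters CCGGAAG of the ETS site were in 11 (30.6%, against 12.4%), AAGATGGCG of YY1 in 1 (2.78%, against 2.08%) and GGGCGGG of SP1 in 11 (30.6%, against 36.0%). These sequences are shown because they belong to Cycs, the gene called without saline 3, to Cox6a1, at -0.01, and to Atp5l, the complex V gene with the lowest fold change. Capitals mark the NRF1 letters and each is 5′ to 3′ on the gene's strand.
Cycs, chr6:50566606-50566645, minus strand: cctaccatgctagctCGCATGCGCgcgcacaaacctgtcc
Cox6a1, chr5:115349096-115349135, minus strand: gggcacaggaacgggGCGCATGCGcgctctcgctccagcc
Atp5l, chr9:44920953-44920992, minus strand: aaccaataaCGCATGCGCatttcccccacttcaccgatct

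The median log2 fold change was nearly the same with and without the NRF1 letters. It was -0.13 for the 7 with them (Atp5k, Cox6a1, Cycs, Atp5l, Uqcrc1, Uqcr11 and Atp5g2, from -0.29 to 0.06) and -0.12 for the 29 without. The 11 genes with the ETS letters had a median of -0.13 and the 25 without -0.12. A match describes the letters of a promoter only.

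Of the genes that build these complexes, 0 were called with all 8 libraries, and their direction differed between lists. Over all genes 0.0313% were called lower and 0.075% higher. There 49.9% lay below 0, and 54.7% of those at 15 CPM or more. All 6 tested assembly factors of complex III were below 0 with a median of -0.19, led by Ttc19, which clears fragments of the Rieske protein (-0.23 ± 0.0901 SE). Complex II assembly factors had 3 of 4 below 0 and a median of -0.19, and complex IV assembly factors 10 of 19 and a median of -0.07. Cox20, which handles a mitochondrially encoded subunit, was at -0.34 and Cox11, a copper chaperone, at 0.22. Of the complex V helpers 3 of 4 lay below 0, and Atpif1, the inhibitor of ATP hydrolysis, was at -0.20 ± 0.0911 (SE).

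All 3 listed subunits whose names fall outside the rule were below 0. Ndufa4, a complex IV subunit despite its name, was at -0.30 ± 0.0819 (SE; edgeR adjusted p = 0.365) and was called without saline 3 (-0.32, edgeR adjusted p = 0.0489). The small membrane subunits of complex V, 2010107E04Rik and Usmg5, were at -0.34 and -0.22. The 3 supercomplex factors had a median of -0.08, with Higd1a at -0.18. The 12 genes of coenzyme Q synthesis and handling had 5 below 0 and a median of 0.05, with Coq10b at -0.37. The 12 regulators of respiratory genes had a median of -0.04, with Nrf1 itself at 0.12 ± 0.150 (SE). The 36 listed subunits of complex I, the enzyme MPTP's product blocks, had 32 below 0 and a median of -0.09. Ndufb6 had the lowest p at -0.32 (edgeR adjusted p = 0.389) and was called without saline 3 (-0.39, edgeR adjusted p = 0.0341). The calls without saline 3 were thus 1 of the 3 subunits outside the rule and 1 of the 36 of complex I. In that setting 0.983% of all genes were called lower. Of all genes at 15, 100 and 300 CPM or more, 54.7%, 64.5% and 69.0% lay below 0 with all libraries.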

How the data were processed

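TRAP RNA was profiled by RNA-seq in 8 libraries. The authors deposited raw counts per gene. The submitters' processing notes name TopHat2 2.0.8 and the build mm10, and per the labels' protocols cDNA was amplified before library preparation and read as single ends. For the counting tool and its use of strand, nothing is given in the sources used here.

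Counts were tested with edgeR 4.0.16 in R 4.3.3 (TMM scaling, filterByExpr, robust quasi-likelihood F-test, no covariate, Benjamini-Hochberg adjustment over 15999 genes, threshold 0.05). The SE is the size of the log2 fold change over the square root of F. CPM use TMM-scaled totals, and log2 CPM a prior count of 2. Exon lengths, GC content and positions are from GENCODE vM21 (GRCm38), and copies were found with BLAST+ 2.17.0 at 97% identity over 100 bases. Genes named were the catalytic subunits and isoform pairs, up to 4 per complex with the smallest p, and up to 3 per list. Other names, as Cox5b, Cox6b1 and Uqcr10, were chosen after their values were seen. Members, lists and naming rule were chosen with earlier results of these data known. Length definition, abundance ranges, the within-group component and 5 GC or length relations were set after the values were seen. Alternatives were other scalings and filters, DESeq2 1.42.0, limma 3.58.1 voom, a marker score as covariate, a replicate block and leaving out each library. On simulated counts the fit recovered 56% of 50 genes changed 1.5-fold, and 90%, 94% and 100% of 50 each changed 2-fold, 4-fold and 8-fold. Of its 181 calls, 11 were false. Changes smaller than 1.5-fold, as those of the abundant subunits, were not simulated. The same-numbered libraries of the 2 groups were checked for pairing and did not deviate together.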

Additional observations from a re-analysis of the deposited data

Results flagged for a closer look

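In 82 groups of 4 values (a gene or a complex within MPTP or saline) 4 held a library far from the other 3, by Dixon's criterion, and chance gives about 1 in 20. In saline 2, Sdha had a log2 CPM of 8.56, with the other saline libraries at 8.42 to 8.44. In the same library Atp5c1 had 7.44, with the others at 7.09 to 7.13. In MPTP 2, Atp5l had 7.64, with the others at 7.42 to 7.44. In saline 3 the mean log2 CPM of complex III was 7.11, with the others at 7.27 to 7.28.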

How the results depend on the processing

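Of 775 recomputed values, 703 were counted as the same, 49 as reversed in direction and 1 as stronger. The other 22, all of them counts or medians, were counted as moved. Most moved medians kept their direction, but a complex II median of 0.0436 changed sign. The number of all genes called was 17, with 11 at a mean CPM of at least 5, 53 with DESeq2 and 8 to 297 when 1 library was left out (297 without saline 3). The number of the 51 genes called was 0 to 1 and the number with groups apart 3 to 14 when 1 library was left out. Medians then ranged from -0.15 to -0.022 for complex II, from -0.15 to -0.089 for III, from -0.13 to -0.0071 for IV and from -0.17 to -0.033 for complex V. Subunits near 0 changed sign: Sdha was at 0.0097 with upper quartile scaling, 0.0063 with voom, 0.0036 at a mean CPM of at least 5 and 0.032 with the non-neuronal marker score as covariate. With that covariate Cox4i2 was at -0.10, Cox8a at -0.038 and Atp5c1 at 0.040. Cox6a1 was at 0.0014 with upper quartile scaling and Cox8a at -0.0033 with voom. When 1 library was left out, Sdha ranged from -0.033 to 0.047, Cox4i2 from -0.14 to 0.33, Cox6a1 from -0.056 to 0.025, Cox7a2l from -0.0051 to 0.14, Cox8a from -0.064 to 0.080, Cox8b from -0.042 to 1.51, Atp5c1 from -0.10 to 0.066 and Atp5g2 from -0.0037 to 0.10. The difference of the Atp5g1 share ranged from -0.252 to 0.189 and that of the Cox4i2 share from -0.0112 to 0.0428 percentage points.

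Added after seeing the data, the GC offset put Cox4i2 at -0.036, Cox8a at -0.085 and Atp5g2 at -0.018. The offset without saline 3 gave 293 genes called, medians of -0.19, -0.21, -0.15 and -0.20 for complexes II to V and -0.19 over all, Cox8a at -0.093 and Atp5g2 at -0.047. The non-neuronal score without saline 3, also added, gave 26 genes called and medians of 0.0436 for complex II, -0.26 for III, -0.27 for IV and -0.25 over all. It put Sdha at 0.18, Sdhd at 0.30, Cyc1 at 0.056, Uqcrfs1 at 0.030, Cox4i2 at -0.42, Cox8a at -0.25, Atp5a1 at 0.031, Atp5b at 0.13, Atp5c1 at 0.26, Atp5g2 at -0.21 and Atp5j at 0.0035. There the score of each MPTP library (2.63 to 3.02) is above that of each saline library (2.19 to 2.52), so score and treatment cannot be told apart. The causes of these shifts were not tested.

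Same-numbered libraries did not deviate together (correlations of -0.02, -0.12, -0.03 and 0.04), and the fit with the replicate number as a block called 14 genes and 0 of the 51, with medians of -0.10, -0.12, -0.05 and -0.12 for complexes II to V. Rare isoforms are limited by depth: Cox6a2 had 9 to 82 counts and Cox8b a 95% interval from -1.34 to 2.45.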
